A study of Mus musculus with 4 samples.

Results

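Interferon-response and antigen presentation genes were followed in the trachea of mouse embryos, wild type or labelled as a1H knockout. The list named 37 genes, 22 of them induced by interferon and 15 of the major histocompatibility complex (MHC) and proteasome set. Members were found by their gene symbol in the annotation of the array, and 35 of the 37 were matched, out of 18193 genes that had a probe set of their own. The members Isg15 and Ifi44 were not matched to a probe set of 1 gene and have no value here. Each gene was read from its brightest probe set over all arrays, with no filter on level. Of the 35 matched members, 25 were at or above the median level of all probe sets, a signal of 397, namely 13 of the 20 interferon-induced genes and 12 of the 15 MHC and proteasome genes.

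The samples were 2 of wild-type embryo trachea and 2 of a1H knockout embryo trachea, all at embryonic day 16 and on a C57BL/6 background. Each was on 1 Affymetrix array. The a1H gene is taken as Cacna1h, which encodes the pore-forming subunit of a T-type calcium channel, and the design text says that homozygous embryos were sought. The deleted part of the gene, the cells in which it is lost and any pooling of embryos are not stated in the labels used here. With nothing said of separate litters or dissections, p-values cover just how far these samples vary, and that variation may be technical.

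Interferons are secreted proteins that warn neighbouring cells of infection. Type I interferons act through a complex with STAT2 and IRF9 that binds the interferon-stimulated response element, and interferon gamma acts through the gamma-activated site. Both raise MHC class I genes and the proteasome subunits and transporters that supply MHC class I with peptides. MHC class II genes depend on the transactivator CIITA and are made mostly by antigen-presenting cells and by the epithelium of the thymus, an organ that lies close to the embryonic trachea. Bulk RNA does not tell fewer cells of a type from less RNA per cell.

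The promoters of the members were searched for letters of these arms of control. Short stretches upstream of the start site are shown for genes whose values are given below. Windows of 300 bases, 250 before to 50 after each start, were taken from RefSeq on the build GRCm38.p6, and 28 of the 37 members had one. The core of the interferon-stimulated response element, GAAA repeated after a gap of any 2 bases, on either strand, was present in 3.44% of all 32851 windows. Of the interferon-induced members with a window, 11 of 18 held it, and of the MHC and proteasome members 1 of 10 did, B2m. Some members had several windows, and counted by window these were 11 of 22 and 1 of 11. Capitals mark the matches in the following stretches, written 5′ to 3′ along each gene; 2 matches overlap in Bst2.
Ifit1, chr19:34640765-34640833, plus strand: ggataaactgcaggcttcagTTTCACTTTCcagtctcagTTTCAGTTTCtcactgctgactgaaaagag
Ifit3, chr19:34583353-34583436, plus strand: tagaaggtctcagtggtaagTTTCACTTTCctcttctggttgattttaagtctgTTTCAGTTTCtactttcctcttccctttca
Rsad2, chr12:26456543-26456592, minus strand: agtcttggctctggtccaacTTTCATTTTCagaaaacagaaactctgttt
Bst2, chr8:71537567-71537622, minus strand: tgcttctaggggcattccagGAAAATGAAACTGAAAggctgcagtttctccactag
Gbp2, chr3:142620584-142620633, plus strand: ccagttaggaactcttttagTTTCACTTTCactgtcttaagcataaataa
B2m, chr2:122147528-122147577, plus strand: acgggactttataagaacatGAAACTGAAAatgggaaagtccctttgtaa

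The gamma-activated site core, TTCNNNGAA, read the same on both strands, stood in 8.3% of all windows. It was in 4 of 18 interferon-induced members and in 1 of 10 MHC and proteasome members, or by window 4 of 22 and 1 of 11. A match was in the window of Irf1, the interferon gamma-responsive transcription factor. In Bst2 this match overlapped the first response element.
Irf1, chr11:53769904-53769952, plus strand: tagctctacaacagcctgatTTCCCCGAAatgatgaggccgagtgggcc

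Other letters were counted for MHC promoters. The Y box core of MHC promoters, CTGATTGG on either strand, stood in 4.1% of all windows and in 0 of 18 interferon-induced members. Of the MHC and proteasome members 6 of 10 held it, namely H2-Aa, H2-Eb1, H2-K1, H2-D1, Psmb9 and Tap1. Counted by window these were 0 of 22 and 7 of 11. A kappa B core of MHC class I promoters, GGGATTCCC on either strand, stood in 0.353% of all windows. H2-K1 and H2-D1 held it, in stretches that were nearly alike, and so did 1 interferon-induced member, Irf1. Psmb9 and Tap1 start in opposite directions with 225 bases between their starts, so both share the last stretch shown and its single Y box, written along Tap1. Capitals mark the kappa B core in the H2-K1 and H2-D1 stretches and the Y box in the others. These matches are descriptions of letters and were not tested for binding. Only exact matches were counted. The letters tttcacttc, close to the response element core, end both the H2-K1 and the H2-D1 stretch and were not counted.
H2-K1, chr17:34000429-34000477, minus strand: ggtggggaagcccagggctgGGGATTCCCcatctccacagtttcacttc
H2-D1, chr17:35262904-35262952, plus strand: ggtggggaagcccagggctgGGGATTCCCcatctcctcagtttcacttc
H2-Aa, chr17:34287832-34287909, minus strand: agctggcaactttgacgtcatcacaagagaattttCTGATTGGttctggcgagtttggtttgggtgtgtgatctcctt
H2-Eb1, chr17:34305770-34305847, plus strand: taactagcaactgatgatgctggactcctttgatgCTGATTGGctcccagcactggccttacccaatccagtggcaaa
Psmb9 and Tap1, chr17:34187331-34187555, plus strand: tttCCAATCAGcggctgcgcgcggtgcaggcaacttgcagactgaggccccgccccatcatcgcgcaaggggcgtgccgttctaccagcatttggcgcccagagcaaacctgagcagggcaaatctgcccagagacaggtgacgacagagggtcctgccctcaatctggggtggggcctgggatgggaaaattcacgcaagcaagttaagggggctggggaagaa

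Several arrays held RNA of other organs or could not be checked. The median signal was 459 and 416 on the wild-type arrays, 426 and 320.0 on the labelled knockout arrays. The summed signal of 6 placental markers was 119926 on labelled knockout replicate 2 and 479.7 to 864 on the other arrays, and that of 5 salivary gland markers was 619 on wild-type replicate 1 and 9199 to 57353 on the others. Smgc, a secreted protein of the salivary gland, read 3.74 on wild-type replicate 1 and 28112 on wild-type replicate 2. Markers of the tracheal wall, except Nkx2-1, were at or above the median level but mostly lower in the labelled knockout. Of 8 airway epithelium markers 7 were below 0, 5 without overlap, where 19.1% of all genes were lower without overlap. Their median log2 difference was -0.34. Their summed signal was 46076, 62479, 40128 and 43964 in the order wild type 1 and 2, labelled knockout 1 and 2. Of 8 markers of cartilage and smooth muscle 6 were below 0, 1 without overlap, with a median of -0.26 and sums of 88099, 120133, 81955 and 103559. None passed the test, and their part in the values below was not tested. Cacna1h read 629.5 and 538 on the wild-type arrays, 981 and 631 on the labelled knockout arrays, a log2 difference of 0.43 ± 0.32 (SE), and since the position of its probe set relative to the deleted part is not given here, the genotype labels could not be checked.

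No member passed the test of genotype. The limma fit over 18193 genes called 0 of them (0%) at an adjusted p under 0.05 by the Benjamini-Hochberg method, the smallest being 0.886, while 849 genes (4.67%) had an unadjusted p under 0.05. Without labelled knockout replicate 1 the count was 136 genes and without labelled knockout replicate 2 it was 3, and in neither case was a member among them. The median half-width of the 95% interval of a member's log2 difference was 0.89 before adjustment. Differences larger than that also missed the adjusted threshold, so a member that did not pass is not shown to be equal between genotypes. An exact two-sided permutation test of 2 arrays against 2 cannot give a p under 0.333. All differences below are log2(signal + 16), labelled knockout minus wild type, and values are given in the order wild type 1 and 2, then labelled knockout 1 and 2.

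The interferon-induced genes and the MHC and proteasome genes had different medians. The median log2 difference was -0.06 over 20 interferon-induced genes and 0.82 over 15 MHC and proteasome genes, beside -0.02 over all genes, a distance of 0.88 between the medians. Within replicate number 1 the medians were 0.29 and 1.03, and within replicate number 2 they were -0.40 and 0.30, so the distances were 0.74 and 0.70. Of the interferon-induced genes 9 were above 0 and 11 below, and of the MHC and proteasome genes 13 were above and 2 below, where 48.2% of all genes were above. The small median of the interferon-induced genes has no settled sign, being 0.08 after quantile normalisation and 0.18 with arrays centred on their medians. Centring moved the median of all genes to 0.21, and relative to it the medians were -0.04 and 0.84, as before centring. When all probe sets of each gene were averaged, dim ones included, the MHC and proteasome median was 0.33.

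Groups without overlap were counted next. The labelled knockout arrays were both above both wild-type arrays in 9 of the 15 MHC and proteasome genes and in 0 of the 20 interferon-induced genes, against 16.8% of all genes. They were both below in 0 of the 15 and in 5 of the 20, against 19.1% of all genes. An unadjusted p under 0.05 with a higher level was found for 7 of the 15 and 0 of the 20, against 2.19% of all genes. With a lower level it was found for 0 of the 15 and 0 of the 20, against 2.47%. Higher levels within both replicate numbers were found for 11 of the 15 and 0 of the 20, against 28.4% of all genes, and lower levels for 0 of the 15 and 6 of the 20, against 31%. A level at least 2-fold higher was found for 5 of the 15, Psmb9 and the class II genes, and for 0 of the 20, against 1.51%. With 1 array left out, 10 to 13 of the 15 MHC and proteasome genes were higher without overlap, where 28.5% to 34.4% of all genes were, and 0 to 2 were lower. Of the 20 interferon-induced genes 0 were higher and 10 lower with wild-type replicate 1 left out, and 8 higher and 6 lower with wild-type replicate 2 left out. With labelled knockout replicate 1 left out 0 were higher and 12 lower, and with labelled knockout replicate 2 left out 9 were higher and 5 lower. The lower share of all genes was 29.9% to 40.6%.

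**Figure D1:**
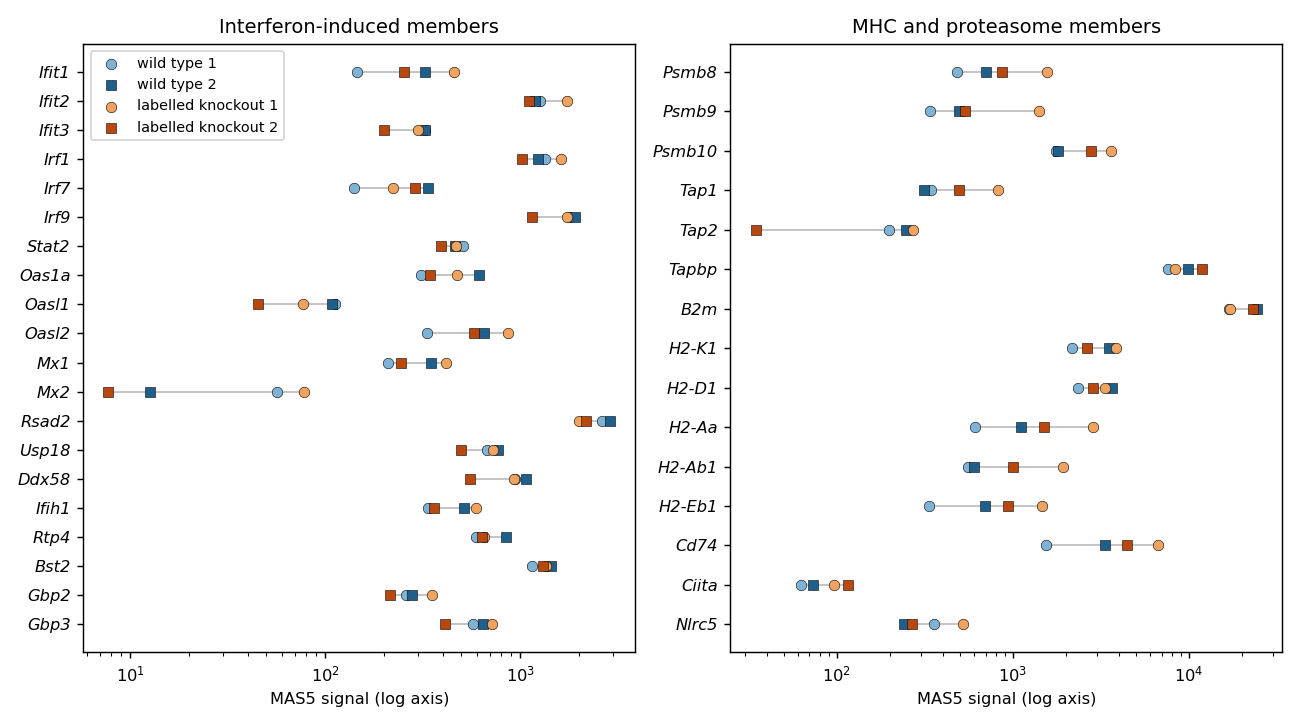
MAS5 signal (horizontal log axis) of each of the 35 matched members on each of the 4 arrays, 1 point per array, with a grey line from the lowest to the highest array. The H2-Aa, H2-Ab1, H2-Eb1 and Cd74 points of both labelled knockout arrays lie to the right of both wild-type points, while most interferon-induced genes have the genotypes interleaved.

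The regulators of the interferon response had a median log2 difference of -0.17 over 5 genes. On their brightest probe sets only Irf9 had genotypes without overlap. Irf9, the DNA-binding part of the type I interferon complex, read 1787 and 1909.7 on the wild-type arrays, 1744 and 1149.6 on the labelled knockout arrays. Most of that gap lay with replicate number 2, the log2 differences being -0.03 within replicate number 1 and -0.72 within replicate number 2. Without labelled knockout replicate 2 the log2 difference of Irf9 was -0.08. Stat2, its partner, read 509, 463, 467 and 392, a log2 difference of -0.17 ± 0.32 (SE). The dimmer probe set of Stat2 read 208, 285, 199 and 163, lower without overlap at -0.40. Irf1, the interferon gamma-responsive factor whose promoter is shown above, read 1339, 1231, 1609 and 1022. Here the labelled knockout held both the highest and the lowest array, and the log2 difference was 0.00 ± 0.28 (SE). Usp18, the protease that removes ISG15 and restrains the type I receptor, read 675, 774, 726 and 496. Irf7, the amplifier of type I interferon production, was below the median level at 141, 338, 223 and 288, with overlapping groups.

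The sensors of viral RNA, Ddx58 (RIG-I) and Ifih1 (MDA5), had differences of opposite sign, neither past the test. Ddx58 read 936 and 1066 on the wild-type arrays, 929 and 553 on the labelled knockout arrays, a log2 difference of -0.47 ± 0.32 (SE). Without labelled knockout replicate 2 the value was -0.10. Its other probe sets gave -0.20 and -0.74. Ifih1 read 339, 516, 593 and 360.4, with overlapping groups and a log2 difference of 0.14.

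Among the antiviral effectors Rsad2, which encodes viperin, an enzyme that makes a chain-terminating nucleotide, had the narrowest interval. It read 2628 and 2894 on the wild-type arrays, 2007 and 2170.4 on the labelled knockout arrays, or 2761 ± 188 against 2089 ± 115 (SD, n = 2 each). Both labelled knockout arrays were below both wild-type arrays, and the log2 difference was -0.40, with -0.39 and -0.41 within the replicate numbers and a 95% interval from -0.83 to 0.03. Its other probe sets gave -0.44 and -0.76. The limma fit gave an adjusted p of 0.886.

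Other effectors without overlap were dim. Oasl1, an OAS-like protein that dampens translation of Irf7, read 112, 109, 76.9 and 45.4. Ifit3, one of the IFIT proteins that bind foreign RNA, read 326, 327, 299 and 201. Without labelled knockout replicate 2 the log2 differences of Oasl1 and Ifit3 were -0.44 and -0.12, against -0.74 and -0.39 with it. The relatives of Ifit3 overlapped between genotypes. Ifit2 read 1258, 1194, 1738 and 1107, with the labelled knockout at both ends, and Ifit1 read 146, 326, 455 and 255, a log2 difference of 0.60 ± 0.52 (SE).

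On their brightest probe sets the remaining effectors overlapped between genotypes. Oasl2, a further OAS-like gene, read 334, 654, 870.2 and 577, with log2 differences of 1.34 and -0.18 within the replicate numbers. Bst2, the tetherin that holds budding viruses at the cell surface, read 1145, 1435, 1358 and 1313, a log2 difference of 0.06 with a 95% interval from -0.48 to 0.60. Oas1a, which makes the 2-5A messenger of RNA decay, read 311, 617, 475 and 344. Gbp3, a guanylate-binding GTPase, read 571, 644, 713 and 411, and Rtp4, a chaperone of receptors that also binds viral RNA, read 594, 842, 649 and 639, a log2 difference of -0.13. The dimmer probe set of Rtp4 read 195, 173, 120 and 29.0, lower without overlap at -1.35, and the mean of both gave -0.74. Gbp2, Mx1 and Mx2 were below the median level, with log2 differences of 0.04, 0.23 and 0.05, and Mx2 ranged from 7.74 to 77.7.

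Labelled knockout replicate 2 was the lowest array for 11 of the 20 interferon-induced genes, against 33.9% of all genes, and for 1 of the 15 MHC and proteasome genes. This is also the array with the lowest median signal and the placental markers. Without it the median log2 difference of the interferon-induced genes was 0.10, and without labelled knockout replicate 1 it was -0.31. The part of array composition in these values was not tested.

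**Figure D2:**
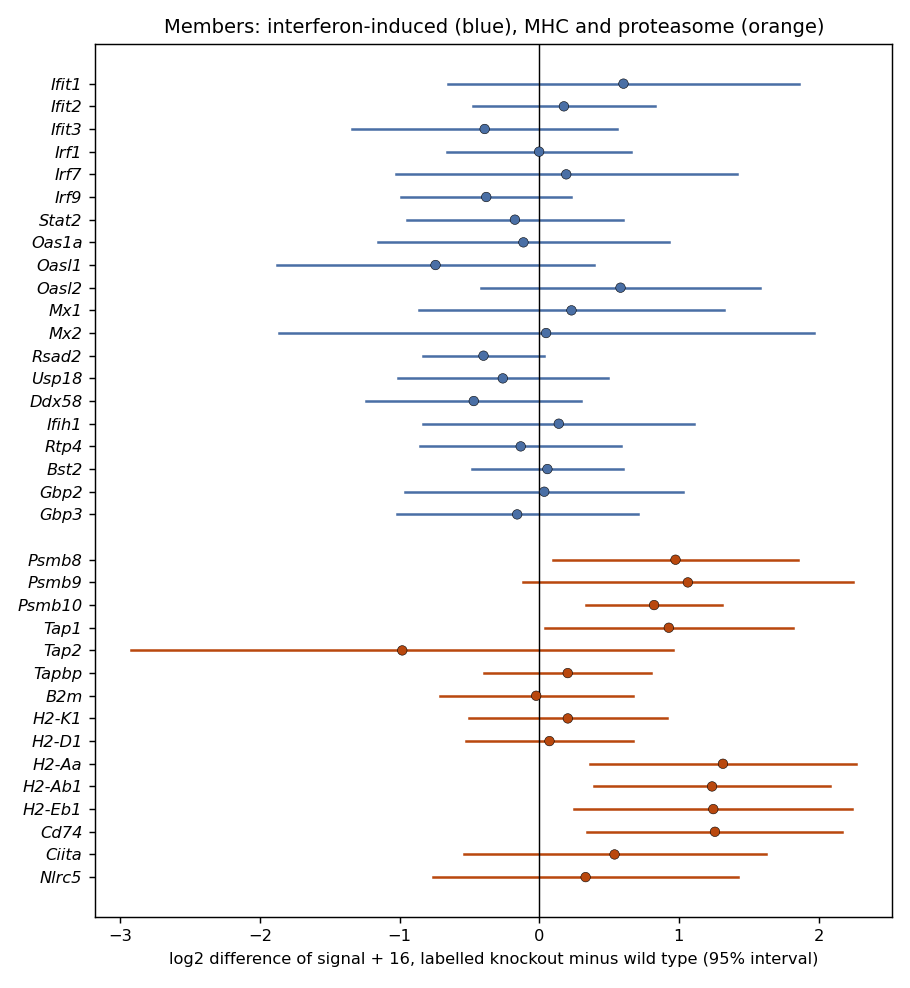
Log2 difference of signal + 16, labelled knockout minus wild type (horizontal axis), for the 35 matched members with 95% intervals from the limma fit before adjustment, interferon-induced genes in blue and MHC and proteasome genes in orange. The 20 blue intervals all include 0, and those of H2-Aa, H2-Ab1, H2-Eb1, Cd74, Psmb8, Psmb10 and Tap1 lie above 0.

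The MHC class II genes had the highest differences of the members. These genes encode the chains that present peptides from the endosome to CD4 T cells, and Cd74 encodes the invariant chain that guards their groove. Cd74 read 1547 and 3341 on the wild-type arrays, 6695 and 4457 on the labelled knockout arrays, or 2444 ± 1268 against 5576 ± 1583 (SD, n = 2 each), a log2 difference of 1.26 ± 0.38 (SE). H2-Aa, the alpha chain of I-A, read 609.8, 1109, 2841 and 1510.3, a log2 difference of 1.32 ± 0.40 (SE). H2-Ab1, its beta chain, read 553, 602, 1915 and 996, a log2 difference of 1.24.

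H2-Eb1, the beta chain of I-E, read 336 and 694 on the wild-type arrays, 1456 and 939 on the labelled knockout arrays. In all of these class II genes the order of the arrays was the same, labelled knockout 1, labelled knockout 2, wild type 2, wild type 1 from the highest. The spread within a genotype was wide. The median log2 difference of the class II genes was 2.08 within replicate number 1 and 0.43 within replicate number 2. With 1 array left out in turn it ranged from 0.82, without wild-type replicate 1, to 1.75, without wild-type replicate 2. The lowest values of the single genes were 0.86 for H2-Aa and 0.77 for H2-Ab1, without labelled knockout replicate 1, and 0.74 for H2-Eb1 and 0.71 for Cd74, without wild-type replicate 1. The adjusted p of each in the limma fit was 0.886.

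Probe sets of the same class II gene were similar in direction. The other probe sets of H2-Ab1 gave log2 differences of 1.45 and 0.95, and those of H2-Aa gave 1.33, 0.49 and, on 1 that read at most 42.7, 0.77. The H2-Aa probe sets at 0.49 and 0.77 had overlapping groups and were highest on labelled knockout replicate 1. The former read 375, 733, 1420 and 388. Ciita, the class II transactivator, was dim at 62.6 and 73.6 on the wild-type arrays, 97.1 and 116 on the labelled knockout arrays, without overlap. Its other probe sets read 64.3, 109.5, 166 and 5.11 and at most 27.2, with overlapping groups. Nlrc5, the class I transactivator, read 355, 241, 518 and 266, with overlapping groups.

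The immunoproteasome subunits, which replace the constitutive catalytic subunits and yield peptides that fit MHC class I, were above wild type on both labelled knockout arrays. Psmb10 read 1763 and 1814 on the wild-type arrays, 3619 and 2784 on the labelled knockout arrays, or 1788 ± 36.7 against 3202 ± 590.3 (SD, n = 2 each). Its log2 difference was 0.82 ± 0.20 (SE) with a 95% interval from 0.34 to 1.31, an unadjusted p of 0.0055 in the limma fit and an adjusted p of 0.886. It was 1.03 within replicate number 1 and 0.61 within replicate number 2.

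Psmb8 read 482, 708, 1553 and 873, a log2 difference of 0.98 ± 0.37 (SE). Psmb9 read 336, 492, 1407 and 534, with log2 differences of 2.01 within replicate number 1 and 0.11 within replicate number 2. On the brightest probe sets labelled knockout replicate 1 was the highest array for all 3 subunits. For Psmb9 the other labelled knockout array was near wild type. The dimmer probe set of Psmb8 read 319, 871, 901 and 940, higher without overlap at 0.78 but highest on labelled knockout replicate 2. Without labelled knockout replicate 1 the log2 differences of Psmb8 and Psmb9 were 0.57 and 0.38.

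The constitutive counterparts had another order of arrays. Psmb5, which Psmb8 replaces, read 5899, 7392, 6631 and 13156. Psmb6, which Psmb9 replaces, read 9971, 14195, 10062.5 and 19549.5, and Psmb7, which Psmb10 replaces, read 12733, 17434, 15117 and 13417. Psmb5 and Psmb6 were highest on labelled knockout replicate 2 and Psmb7 on wild-type replicate 2, and the genotypes overlapped in each of them.

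**Figure D3:**
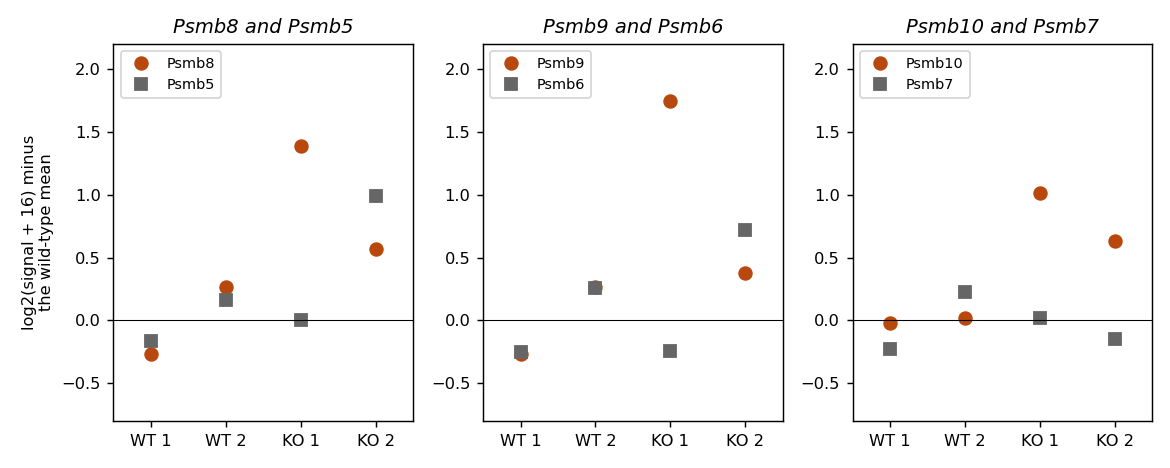
Log2(signal + 16) minus the wild-type mean (vertical axis) for each immunoproteasome subunit (orange circles) and the constitutive subunit it replaces (grey squares) on the 4 arrays, WT for wild type and KO for labelled knockout. On the brightest probe sets Psmb8, Psmb9 and Psmb10 are highest on KO 1, while Psmb5 and Psmb6 are highest on KO 2.

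The genes of peptide transport and loading were mixed. Tap1, a subunit of the peptide transporter, read 342 and 314 on the wild-type arrays, 819.9 and 495 on the labelled knockout arrays, a log2 difference of 0.93 ± 0.37 (SE). Its other 3 probe sets gave -0.76 to -1.21 but read at most 130.1, and the mean of all its probe sets gave -0.46, below 0. Without labelled knockout replicate 1 its log2 difference was 0.57. Psmb9, which shares the promoter stretch shown above, had 1.06. Tap2, the partner of Tap1 in the transporter, was below the median level at 199, 247, 271 and 34.6, the last value being that of labelled knockout replicate 2. Tapbp, the tapasin that tethers MHC class I to the transporter, read 7613, 9804, 8312 and 11917, a log2 difference of 0.20 with a 95% interval from -0.39 to 0.80.

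The MHC class I chains overlapped between genotypes on their brightest probe sets. B2m, the light chain, read 16808 and 24431.5 on the wild-type arrays, 17153 and 23219.6 on the labelled knockout arrays, a log2 difference of -0.02 with a 95% interval from -0.71 to 0.67. H2-K1 read 2169, 3507, 3853 and 2626, and H2-D1 read 2347, 3634.5, 3334 and 2834, with log2 differences of 0.20 and 0.07. These heavy chain genes are close copies, 4 probe sets were named for H2-K1 and 9 for H2-D1, and most carry the x_at ending of probe sets that can bind several transcripts, so their levels may be shared. The dimmer probe sets of H2-K1 gave 0.34 with overlap, 0.58 higher without overlap and -0.95 lower without overlap. Over its 9 probe sets the log2 difference of H2-D1 ran from -1.87 to 0.87, with the outermost values on probe sets that read at most 98.4. Those outermost probe sets had no overlap, and neither did a dim one at -0.97.

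Other genes of the pathways were taken from lists that hold no member. Of 13 matched receptor and proximal signalling genes, 0 passed in either direction, 6 were above 0 and 7 below, and the median log2 difference was -0.01. Their differences ran from -0.23 for Ifngr2, a chain of the interferon gamma receptor, to 0.17 for the phosphatase Ptpn11. Ptpn2, another phosphatase, was higher without overlap at 0.13, and Ifnlr1, a receptor chain of interferon lambda, had -0.22 with overlap. Of 13 nucleic acid sensing genes 0 passed, with 6 above 0 and a median of 0.00. Their smallest p-values belonged to Tlr7 and Dhx58, both dim and lower without overlap at -0.92 and -0.41, and to the DNA sensing genes Cgas and Sting1, at 0.22 without overlap and 0.23 with it. Of 33 matched further interferon-induced genes 0 passed, 15 were above 0 and 18 below, and the median was -0.04. Eif2ak2, the RNA-dependent kinase PKR, read 1603 and 1797 on the wild-type arrays, 1264 and 1240.4 on the labelled knockout arrays, a log2 difference of -0.43, whereas the exonuclease gene Isg20 read 2057.5, 3052, 3709 and 3599.9, a log2 difference of 0.54. The other genes with the smallest p of this list were dim. Ifi203 read 123, 114, 70.5 and 5.88, lower without overlap at -1.63, and Oas3 read 34.6, 19.2, 123 and 50.1, higher without overlap at 1.19.

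Of 16 matched other proteasome subunits 0 passed, with 14 above 0 and a median log2 difference of 0.19, 0.13 within replicate number 1 and 0.35 within replicate number 2. Beside Psmb5, the smallest p-values belonged to Psma2, Psmb3 and Psmb1, at 0.48, 0.35 and 0.28 with overlapping groups. Of 21 matched other antigen presentation genes 0 passed, 11 were above 0 and the median was 0.06. The peptide exchange factor of class II had the genes with the smallest p of this list. H2-DMb2 read 410.3 and 538 on the wild-type arrays, 1221 and 732 on the labelled knockout arrays, and H2-DMa read 183, 264, 409.6 and 525, with log2 differences of 0.98 and 1.02 and no overlap. H2-Ob, which restrains that exchange, was dim at 100.1, 112, 26.5 and 51.7, a log2 difference of -1.18. H2-Q2, a class I-like gene, was also dim and lower without overlap, at -0.74.

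**Figure D4:**
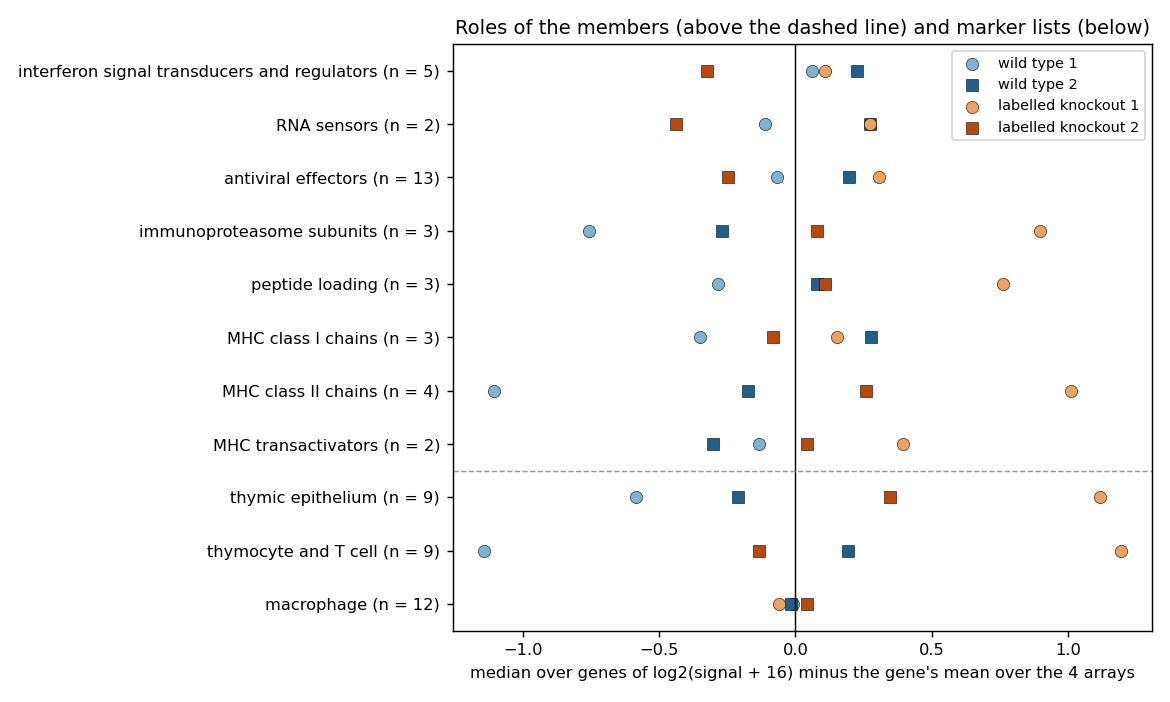
Median over the genes of each role or marker list of log2(signal + 16) minus the gene's mean over the 4 arrays (horizontal axis), 1 point per array, with the number of genes in brackets. The class II, immunoproteasome and thymic epithelium medians run in the order labelled knockout 1, labelled knockout 2, wild type 2, wild type 1. The macrophage medians of the arrays run from -0.061 to 0.043.

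Several markers of the thymus had the array order of the class II and immunoproteasome genes. Of 9 thymic epithelium markers 8 were higher in the labelled knockout, 5 without overlap, where 16.8% of all genes were higher without overlap. Their summed signal was 15219.7 and 23130.2 on the wild-type arrays, 32816 and 28018 on the labelled knockout arrays. Psmb11, the proteasome subunit of the cortical thymic epithelium, read 173, 389.6, 1792 and 774. Of the 3 brightest of these markers, Ccl25, the chemokine of thymic epithelium, read 962, 2535, 6205 and 4327, without overlap. The others, Ctsl and Krt5, are also made in other tissues and overlapped, at 8944, 13283, 10284 and 14234 for Ctsl and 2982, 3499, 2989 and 4350 for Krt5. Foxn1, the defining factor of thymic epithelium, was dim at 55.4, 70.4, 78.6 and 138.

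Of 9 matched thymocyte and T cell markers 8 were higher, 4 without overlap, against 16.8% of all genes. Their summed signal was 5531 and 15180.5 on the wild-type arrays, 32430.3 and 12950.0 on the labelled knockout arrays. Rag1, the recombinase of developing lymphocytes, read 1103, 4276, 6830.1 and 2430.1, and Thy1 read 1082, 1743, 4174 and 2597. Cd3g, a chain of the T cell receptor complex, read 548, 2105, 4803 and 2013, with overlapping groups as for Rag1. The array order seen in the class II genes was present in 2.3% of all genes. On brightest probe sets 3 of the 11 other MHC and proteasome genes had it, Psmb8, Psmb9 and Psmb10. Of the 20 interferon-induced members 0 had it. It was present in 4 of the 9 thymic epithelium markers and in 4 of the 9 thymocyte markers. Of the 33 further interferon-induced genes 2 had it, Isg20 and Gbp6. Of the 21 other antigen presentation genes 2 had it, H2-DMb2 and Rfx5. The order was taken from the class II genes after their values were seen, so those are not counted. The members and all lists were chosen with earlier results of these data known, so these shares are descriptions. The part of thymic RNA in the class II and immunoproteasome values was not tested.

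Markers of other cells that carry MHC class II were mixed. The summed signal of 12 macrophage markers was 26912 and 32028 on the wild-type arrays, 27993 and 35902 on the labelled knockout arrays, with 5 above 0, 7 below and a median log2 difference of -0.02. The brightest of them, C1qb, read 7989, 10619, 8243 and 12118, with overlapping groups, Mrc1 was lower without overlap and Csf1r higher without overlap. Of 8 matched dendritic and B cell markers 3 were above 0 and 5 below, and only Zbtb46 was at or above the median level. Flt3, a receptor of dendritic cell precursors, was dim at 29.2, 21.2, 69.9 and 82.3, higher without overlap, with a log2 difference of 1.16. Cd79b, a chain of the B cell receptor complex, read 215, 274, 350 and 304, higher without overlap and in the array order of the class II genes. Itgax overlapped, and Cd79a, Ms4a1 and Pax5 overlapped at no more than 73.7, 90.05 and 60.5. The summed signal of the list, 5105, 4343, 5023 and 3885, was mostly that of Zbtb46, at 4521, 3792, 4348 and 3260. The part of these cells in the class II values was not tested.

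**Figure D5:**
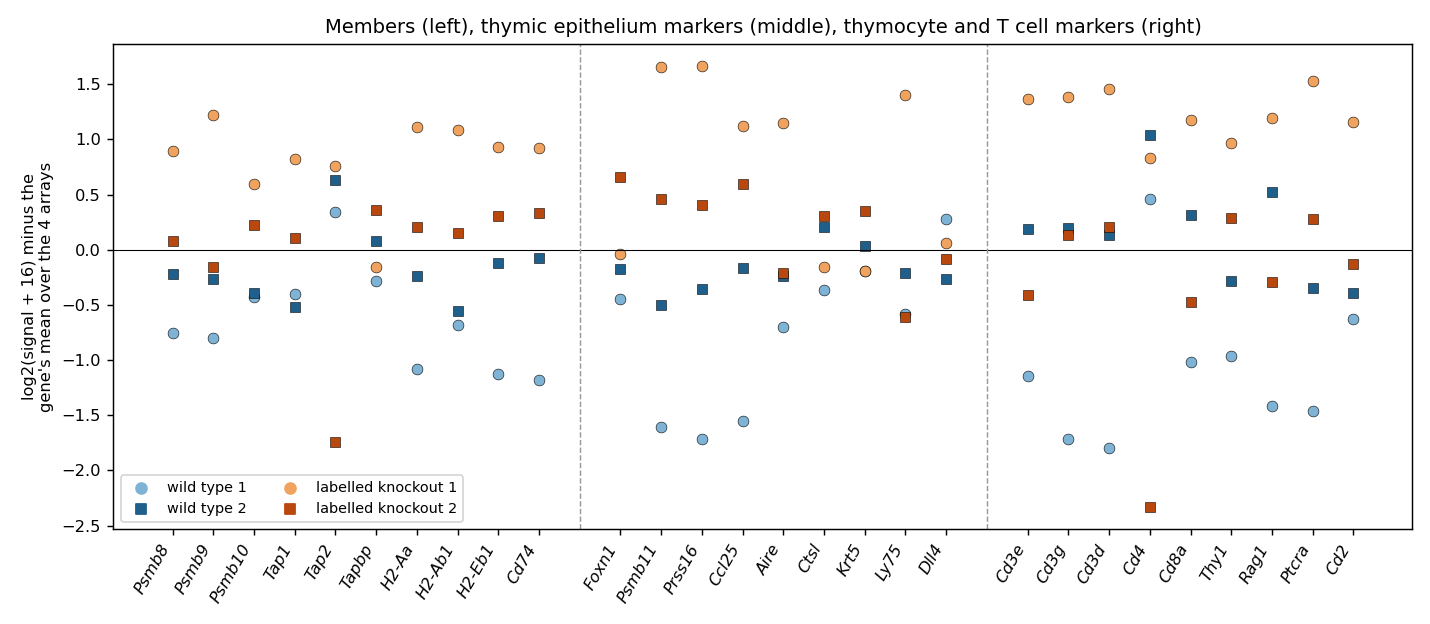
Log2(signal + 16) minus the gene's mean over the 4 arrays (vertical axis) for the immunoproteasome, peptide loading and class II members (left), thymic epithelium markers (middle) and thymocyte and T cell markers (right), 1 point per array. Labelled knockout replicate 1 is the highest array for 9 of the 10 members shown, and wild-type replicate 1 is low for most markers on the right.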

How the data were processed

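Total RNA from embryonic trachea was extracted with Trizol, 50 ng was amplified by SPIA and 3.75 µg of the cDNA received biotin, per the labels' protocols. The deposited intensity values are MAS5 signals on a linear scale, per the submitters' processing notes; no version or settings are stated there. Each array had a trimmed mean of about 1500, so the authors' values look scaled per array. MAS5 is noisy for dim probe sets, and no detection calls were used.

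Groups came from sample titles. Of 45101 probe sets, 34945 had 1 gene, 932 several and 9160 none, and 64 were controls. The test was limma 3.58.1 (R 4.3.3) on log2(signal + 16), lmFit then eBayes with trend, with all 4 arrays and genotype alone in the model. It was adjusted over 18193 genes by the Benjamini-Hochberg method at 0.05. The same fit was also run on simulated data with 2 settings of the variance, both taken from the fit to these arrays. There it recovered 1.6% and 23.2% of 2-fold changes, and 4.2% and 13.1% of its calls were false. SDs are over 2 arrays and SEs are moderated. The members, 5 pathway lists and 10 marker lists were chosen with earlier results of these data known. All members were named, with Cacna1h, the constitutive proteasome counterparts, a few preset markers and up to 4 genes of each pathway list by smallest p. Some further markers were named after their values were seen. Figures used matplotlib 3.10.9. Alternatives were 2 pseudocounts, 2 level filters, 2 normalisations, no trend, array weights, 2 choices of probe set, the replicate block and each array left out.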

Additional observations from a re-analysis of the deposited data

How the results depend on the processing

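No member passed under any of the 15 alternatives. The main limits are 2 arrays per group, RNA of other organs on some arrays and dim probe sets, and the cause of the changes below was not tested unless given. The count over all genes ranged from 0 to 136 with 1 array left out. The distance of the interferon-induced from the MHC and proteasome median, -0.88, was -1.08 with only genes at or above the median level. At the 75th percentile of level only 1 interferon-induced and 6 MHC and proteasome genes were left, with medians of -0.40 and 0.20 and a distance of -0.60. When the probe sets of each gene were averaged, which brings in dim ones, the MHC and proteasome median was 0.33 and the distance -0.39. With 1 array left out the interferon-induced median ranged from -0.31 to 0.10, the MHC and proteasome median from 0.57 to 1.01 and the distance from -0.91 to -0.83.

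Of 487 member differences under alternatives 440 kept their sign and 47 did not, and 14 members kept it throughout. Sign changes were Mx2 to -0.095 with a pseudocount of 1 and Irf1 to 0.00037 with 64. With quantile normalisation Irf1, Stat2, Oas1a and Gbp3 were 0.055, 0.040, 0.11 and 0.026. With arrays centred on their medians Irf1, Stat2, Oas1a, Rtp4, Gbp3 and B2m were 0.23, 0.058, 0.12, 0.10, 0.074 and 0.21. With probe sets averaged Gbp2, Tap1, Tapbp, B2m, H2-D1 and Ciita were -0.0044, -0.46, -0.21, 0.0025, -0.34 and -0.0017. Without x_at and s_at probe sets Gbp2 and H2-D1 were -0.045 and -0.019.

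With 1 array left out in turn, the ranges that crossed 0 were -0.14 to 0.50 for Ifit2, -0.32 to 0.32 for Irf1, -0.39 to 0.78 for Irf7, -0.59 to 0.36 for Oas1a, -0.13 to 0.59 for Mx1, -0.94 to 1.04 for Mx2, -0.53 to 0.0066 for Usp18, -0.21 to 0.49 for Ifih1, -0.38 to 0.11 for Rtp4, -0.10 to 0.22 for Bst2, -0.30 to 0.37 for Gbp2 and -0.54 to 0.23 for Gbp3. For the MHC set they were -2.23 to 0.27 for Tap2, -0.056 to 0.46 for Tapbp, -0.29 to 0.25 for B2m, -0.14 to 0.55 for H2-K1, -0.24 to 0.39 for H2-D1 and -0.13 to 0.79 for Nlrc5.

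With the replicate number as a block the medians stayed at -0.06 and 0.82 and 0 genes passed by limma, 1636 having an unadjusted p under 0.05. With only 2 pairs the numbers do not establish a pairing. Deviations of same-numbered arrays correlated at 0.15 across all genes and at 0.32 across the 11694 genes at or above the median level, and genes are not independent replicates. The geometric mean of 9 hybridisation controls was 4787 and 4744 on the arrays numbered 1 and 11598 and 14007 on those numbered 2, so the numbers may mark a batch, for which the block above gives the values.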
